A study of Mus musculus with 4 samples.

Results

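Listed genes of estrogen signalling and of 17-beta steroid metabolism were followed across the cell classes of mouse lung tumours. They were chosen by name: the receptors Esr1, Esr2 and Pgr, the receptor target Greb1, the enzymes Hsd17b2, Hsd17b4, Hsd17b7, Hsd17b11 and Hsd17b12, and the sulfatase Sts. Of these 10 genes, 9 were among the 32289 features of the count tables. Sts was not among them and is not analysed here. RNA was counted cell by cell in 4 libraries, with 1 library for each combination of treatment (vehicle or tamoxifen) and portion (before or after bead depletion of CD45+ and CD31+ cells). All 4 carry the same genotype label, which includes p53frt, Rosa-FSF-CreERT2 and Hnf4aflox. By that label the vehicle mice carried floxed Hnf4a and CreERT2 too, although the library titles name the arms as different genotypes. Tumours were started by intubation with adenovirus expressing FlpO from the surfactant protein C promoter of alveolar type II cells. Treatment began 10 weeks later and tumours were taken 2 weeks after that. The vehicle is named as ethanol in 1 label and as corn oil in another. Individual macroscopic tumours were dissociated, and live cells were sorted after cryopreservation. How many mice or tumours entered each suspension, and the age and sex of the mice, are not given in the labels used here.

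Estrogen receptors are nuclear receptors that bind estradiol and then act on genes carrying estrogen response elements. Tamoxifen binds the same pocket, blocking the receptor in some tissues and partly activating it in others. CreERT2 is Cre fused to a mutated receptor domain that responds to tamoxifen but hardly to estradiol. The 17-beta hydroxysteroid dehydrogenases set local hormone potency by converting estradiol and estrone, or testosterone and androstenedione, into each other, although several members of the family act mainly on fatty acids or sterols. The question asked of these genes was whether the tamoxifen arm carried a mark of estrogen receptor activity besides that of Hnf4a deletion. The 4 libraries include no arm given tamoxifen without CreERT2, so in tumour cells the drug and the deletion cannot be told apart. Cells outside the epithelium are not expected to have recombined with FlpO or to have CreERT2 on, and they were examined for that reason. They come from the same tumours, so the drug and indirect effects of the deletion cannot be told apart there either.

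After filtering, 6111 to 7358 cells per library were kept, 27471 in all, with medians of 9302 to 17733 unique molecular identifiers (UMIs, each standing for 1 captured transcript). Any pair of libraries shared 10 to 18 cell barcodes. Clusters of cells were named from marker genes, and the names are given as "like". Epithelial-like cells numbered 1080 and 6526 in the vehicle libraries before and after depletion, and 1089 and 7088 in the libraries labelled tamoxifen. Levels are UMIs of a gene per 1000000 UMIs of the class in that library (CPM). There are no replicates, so no test was run, and the 95% intervals cover counting error only. Hnf4a, which the treatment was meant to remove, stood in epithelial-like cells at 57.1 CPM before and 55.0 CPM after depletion with vehicle. It stood at 86.8 and 83.0 CPM in the libraries labelled tamoxifen. The log2 ratios of 0.60 and 0.58 run opposite to a loss of Hnf4a RNA. Counts per gene do not show which exons a transcript carries, so deletion could not be checked from them. Directions below are those of the libraries as labelled. The portions before and after depletion come from the same suspensions and do not replicate each other.

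Esr1 (ENSMUSG00000019768, chr10:4611593-5005614, plus strand, GRCm38), which encodes estrogen receptor alpha, was carried mainly by immune cells in these tumours. Of its 3609 UMIs, 11.7% lay in epithelial-like cells. These cells made up 94.3% (vehicle) and 96.3% (labelled tamoxifen) of the cells after depletion. Shares of UMIs given here and below thus follow cell numbers as well as levels. Monocyte or macrophage-like cells held 34.4 CPM (exact Poisson interval 32.0 to 36.9) with vehicle and 32.3 CPM (29.5 to 35.4) in the library labelled tamoxifen, before depletion. Alveolar macrophage-like cells held 31.0 CPM (28.5 to 33.6) and 35.2 CPM (32.8 to 37.7). These macrophage classes were not separable beyond their spread. B cell-like cells held 28.3 and 20.6 CPM, NK cell-like cells 23.3 and 30.5 CPM, and T cell-like cells 20.3 and 12.4 CPM. The intervals of the NK cell-like values, from 19 and 16 UMIs, overlapped those of the macrophage and B cell-like classes. Fibroblast-like cells held 19.5 and 7.56 CPM with vehicle, before and after depletion, and 7.01 and 9.36 CPM in the libraries labelled tamoxifen. Neutrophil-like cells held 9.95 and 8.42 CPM and dendritic cell-like cells 4.36 and 6.005 CPM. Plasma cell-like cells, measured in 1 library, held no Esr1 UMI, which allows up to 1.87 CPM.

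Epithelial-like cells were near the bottom of that order. The vehicle libraries gave 1.81 CPM of Esr1 (1.38 to 2.34) before and 1.13 CPM (0.961 to 1.33) after depletion. The libraries labelled tamoxifen gave 1.46 CPM (1.09 to 1.93) and 1.20 CPM (1.02 to 1.40). Endothelial-like cells held 1.29, 1.24, 2.22 and 0 CPM in the same order of libraries as above (vehicle before and after depletion, then labelled tamoxifen before and after), from 4 UMIs or fewer each. The epithelial-like intervals overlap the endothelial-like ones in every library. When every cell was thinned to 2000 UMIs, an Esr1 UMI was seen in 5.39% (Clopper-Pearson interval 4.37 to 6.57) and 6.21% (5.22 to 7.33) of alveolar macrophage-like cells. Unthinned, the shares were 18.8% and 21.6%. In epithelial-like cells the thinned shares were 0.395%, 0.281%, 0.371% and 0.270%. Thinned endothelial-like cells held none, which with 153, 163, 150 and 122 cells allows up to 1.96%, 1.84%, 2% and 2.46%. Median depths before thinning were 8885 and 9092 UMIs in the alveolar macrophage-like cells, 16844 to 28814 in epithelial-like and 7296 to 13887 in endothelial-like cells. So few endothelial-like cells cannot show whether the epithelial-like share of Esr1 stands above background.

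**Figure D1:**
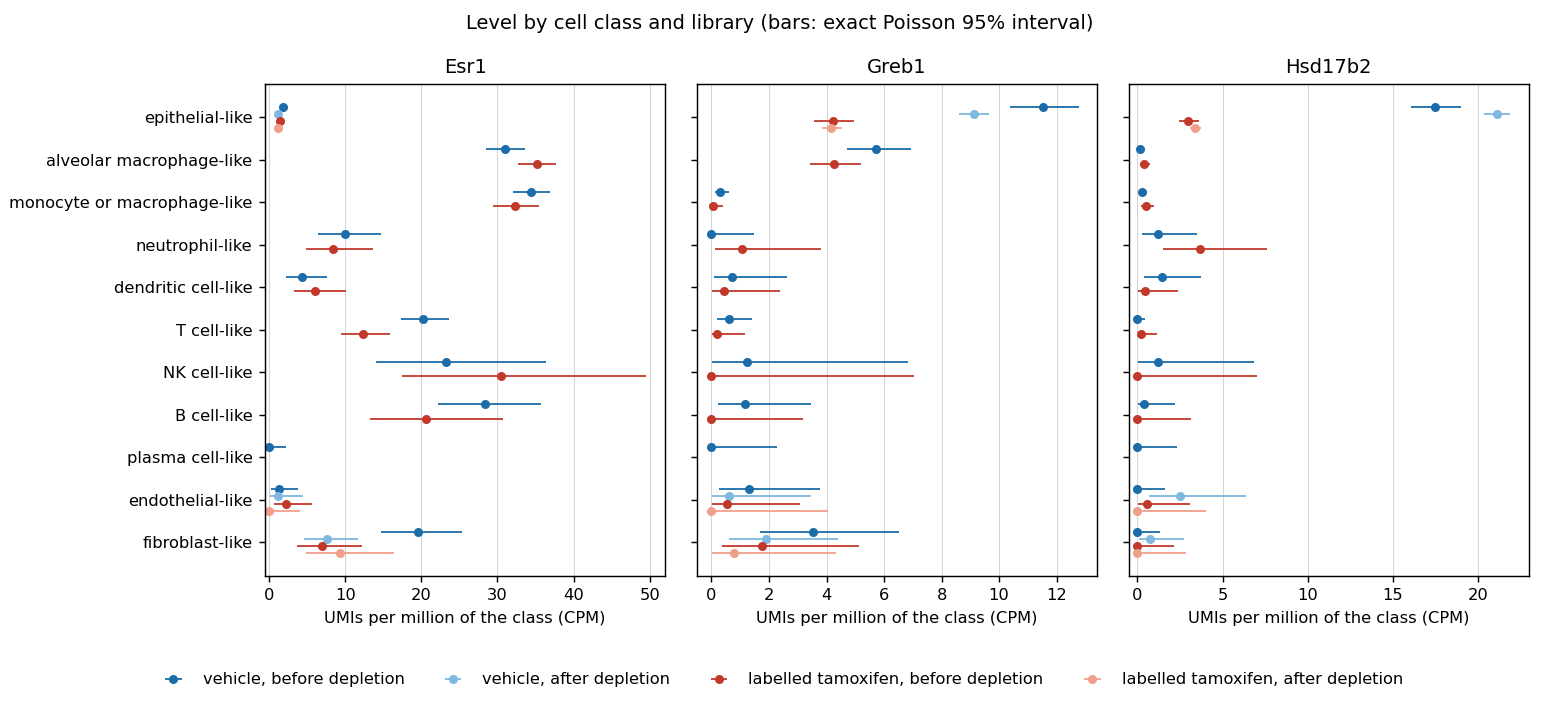
Level of Esr1, Greb1 and Hsd17b2 in each cell class (rows) and library (colours), in CPM, with exact Poisson 95% intervals. Esr1 stands above 30 CPM in both macrophage classes and below 2 CPM in epithelial-like cells. Greb1 and Hsd17b2 are highest in epithelial-like cells of the vehicle libraries, and epithelial-like levels of both lie lower in the libraries labelled tamoxifen.

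Within the macrophage and lymphoid classes Esr1 varied between clusters. Among monocyte or macrophage-like cells, the cluster led by Dcstamp and Mgl2 held 43.4 CPM with vehicle and 44.0 CPM in the library labelled tamoxifen. The cluster led by Ms4a7 and Apoe, with the complement genes C1qa to C1qc, held 12.1 and 13.4 CPM. The F13a1-led cluster held 17.2 and 12.7 CPM. Among T cell-like cells, the cluster led by Lef1 and Tcf7, transcription factors of naive and memory T cells, held 32.7 CPM (27.3 to 38.7) and 17.3 CPM (12.6 to 23.1). The Cd8a-led cluster held 7.55 and 3.09 CPM, from 5 and 2 UMIs. Alveolar macrophage-like clusters went opposite ways: 27.6 against 35.7 CPM in the Chil3-led cluster, and 37.3 against 21.5 CPM in the dividing cluster led by Top2a and Mki67. Over 27 class and library sums and 13398 genes, the patterns most like Esr1 by Pearson's r of log2 level were Slc16a10 (0.93), Mycbp2 (0.91), and Med14, Diaph2 and Rnft1 (0.90 each). These sums share libraries and depth, and the values are a description.

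Esr2 (ENSMUSG00000021055, chr12:76120419-76177259, minus strand), which encodes estrogen receptor beta, gave 141 UMIs in all kept cells. Of them 92.2% were in epithelial-like cells, at 0.219 and 0.537 CPM with vehicle, against 0.287 and 0.299 CPM in the libraries labelled tamoxifen. After depletion the intervals did not overlap (0.421 to 0.675 against 0.213 to 0.407 CPM, from 73 and 40 UMIs), and before it they did. The mean Esr2 level over libraries was 0.335 CPM in epithelial-like and 0.550 CPM in fibroblast-like cells, the latter from 5 UMIs, with overlapping ranges. Pgr (ENSMUSG00000031870, chr9:8899833-8968611, plus strand), the progesterone receptor and a textbook estrogen-induced gene, gave 89 UMIs. It was highest in endothelial-like cells, at 1.72, 2.49, 4.99 and 2.20 CPM, and in fibroblast-like cells, at 2.48, 0.756, 2.92 and 3.12 CPM. Their intervals overlapped in every library. Epithelial-like cells gave Pgr levels of 0.375 and 0.147 CPM with vehicle, and of 0.0574 and 0.105 CPM in the libraries labelled tamoxifen. These came from 12, 20, 2 and 14 UMIs. The log2 ratio of Pgr without a pseudocount had a counting interval of -5.91 to -0.54 before and -1.59 to 0.57 after depletion. Neither gene reached the minimum of 10 CPM used to call a difference.

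Greb1 (ENSMUSG00000036523, chr12:16670615-16800886, minus strand) encodes a cofactor that binds estrogen receptor alpha and is itself induced by estrogen in breast tumour cells. Its 2 promoters are held in RefSeq (GRCm38.p6), and the 250 bases before each start are shown because Greb1 is the listed target that stood apart between the arms. Capitals mark TGACC or its reverse complement GGTCA, 1 arm of the estrogen response element.
Greb1, chr12:16800887-16801136, minus strand: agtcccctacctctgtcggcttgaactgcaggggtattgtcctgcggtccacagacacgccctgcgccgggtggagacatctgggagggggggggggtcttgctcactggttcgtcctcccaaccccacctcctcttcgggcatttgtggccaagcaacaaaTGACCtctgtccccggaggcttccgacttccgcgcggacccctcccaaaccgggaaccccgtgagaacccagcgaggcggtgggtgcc
Greb1, chr12:16757240-16757489, minus strand: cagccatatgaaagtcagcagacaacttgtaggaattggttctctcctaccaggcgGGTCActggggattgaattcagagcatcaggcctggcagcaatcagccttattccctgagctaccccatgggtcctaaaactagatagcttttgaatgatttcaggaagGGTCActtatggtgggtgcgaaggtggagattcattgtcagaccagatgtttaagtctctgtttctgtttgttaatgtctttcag
The first holds 1 such arm and the other 2. The whole element, GGTCA and TGACC with any 3 bases between, was in 0 of the 9 promoters found for 7 of the 9 measured genes, over 300 bases (250 before to 50 after the start) and both strands, against 0.0700% of all 32851 RefSeq promoters. The single arm TGACC, which also makes up the whole element, was in 5 of 9, against 40.5% of all. The HNF4 motif CAAAGTCCA was in 0 of 9, against 0.475% of all. These are letter matches, not sites, and no match says nothing about the factor. No promoter of Hsd17b2 or Hsd17b4 was found, so neither gene was searched.

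Of the 2571 Greb1 UMIs, 90.0% were in epithelial-like cells. With vehicle these cells gave 11.5 CPM (10.4 to 12.8) before and 9.12 (8.62 to 9.64) after depletion. The libraries labelled tamoxifen gave 4.22 CPM (3.57 to 4.96) and 4.17 CPM (3.83 to 4.53). Both vehicle libraries lie above both libraries labelled tamoxifen, by 2.73-fold and 2.19-fold. On the log2 scale with a pseudocount of 1 CPM the ratios were -1.26 and -0.97. Differences were called by size: at least 1 library of a pair had to reach 10 CPM, and the pair had to be 2-fold or more apart on that scale. Greb1 passed before depletion, where 1.41% of 9378 genes were lower and 0.565% higher by the same rule. After depletion it was under 10 CPM, its ratio also missed 2-fold, and it was not called (1.18% of 9156 genes were lower and 0.535% higher). At 2000 UMIs per cell a Greb1 UMI was seen in 2.27% (1.44 to 3.39) and 1.81% (1.501 to 2.17) of epithelial-like cells with vehicle. The shares were 1.11% (0.577 to 1.94) and 0.697% (0.516 to 0.920) in the libraries labelled tamoxifen. The corresponding endothelial-like counts were 0 or 1 cell.

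Greb1 differed widely between epithelial-like clusters. With vehicle it was highest in the Zmat4-led cluster, at 34.2 CPM with vehicle and 5.49 CPM in the library labelled tamoxifen before depletion, and at 24.3 and 7.17 CPM after it (log2 ratios -2.44 and -1.63). That cluster made up 20.4% and 20.9% of epithelial-like cells before depletion, and 17.8% and 19.5% after, so its share was alike in both arms. The Dcpp1-led cluster went from 12.1 to 4.61 CPM and from 13.9 to 5.34 CPM. The Lyz1-led cluster has the alveolar type II genes Sftpa1 and Lamp3 among its leading genes. Its values were closer, at 7.57 and 6.86 CPM before and 7.26 and 5.64 CPM after depletion. In the libraries labelled tamoxifen it stood above the Zmat4-led one before depletion, from 28 against 35 UMIs, and below it after. The Pyy-led cluster went the other way after depletion, from 0.716 CPM (6 UMIs) to 3.62 CPM (30 UMIs). After depletion Greb1 was lower in 8 of the 9 clusters with enough cells in both libraries. The counting interval of the ratio lay below 0 in 5 of the 9 and above 0 in 1. Clusters of the same libraries do not replicate each other. With each cluster given the same share in both libraries of a pair, a setting chosen after the data were seen, the Greb1 ratios were -1.31 and -1.16. That setting used all 10 clusters, including those with few cells.

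Hsd17b2 (ENSMUSG00000031844, chr8:117701904-117759027, plus strand) encodes the oxidising enzyme that turns estradiol into estrone and testosterone into androstenedione. It was almost wholly epithelial, with 98.7% of its 4036 UMIs in epithelial-like cells, and of the 4 listed genes that reached 10 CPM in both pairs it stood furthest apart between the arms. Gm31774 overlaps it on the opposite strand, as Gm48140 overlaps Greb1, and since the use of strand is not given in the sources used here, reads of such partners cannot be told apart. The vehicle libraries gave 17.5 and 21.1 CPM of it before and after depletion. The libraries labelled tamoxifen gave 2.96 and 3.39 CPM. It fell 5.90-fold and 6.22-fold, with log2 ratios of -2.22 and -2.33. Counting intervals of the plain ratio, without the pseudocount, ran from -2.88 to -2.26 and from -2.78 to -2.49. At 2000 UMIs per cell, 1.48% and 2.38% of epithelial-like cells with vehicle held a Hsd17b2 UMI, and 0.650% and 0.398% of those labelled tamoxifen. Alveolar macrophage-like cells, a class not known for this enzyme, gave 0% (up to 0.176%) and 0.142%.

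The mix of epithelial-like clusters differed between the arms as well. A cluster led by Agr2 and Ttr, with Alb and Apoa1 among its leading genes, made up 12.2% and 16.8% of epithelial-like cells in the vehicle libraries. It made up 1.10% and 1.42% in the libraries labelled tamoxifen. It held 66.4% and 67.7% of the Hsd17b2 UMIs with vehicle, and 12.6% and 31.1% of them in the libraries labelled tamoxifen. Inside it, after depletion, Hsd17b2 stood at 55.2 and 35.3 CPM (log2 ratio -0.63). The level was also lower inside other clusters. In the Procr-led cluster, with Krt7 and Krt19 among its leading genes, it went from 26.2 to 5.16 CPM before and from 25.4 to 7.02 CPM after depletion (log2 ratios -2.14 and -1.72). In the Pyy-led cluster it went from 21.6 to 4.59 CPM after depletion. With each cluster given the same share in both libraries the ratios were -0.91 and -0.95, which miss 2-fold, and Hsd17b2 was no longer called. That setting used all 10 clusters, some with few cells. The Agr2-led one had 12 cells in the library labelled tamoxifen before depletion. An Aox3-led one had 2 and 11 cells with vehicle. Without the Agr2-led cluster, an alternative chosen after the data were seen, the ratios were -1.23 and -1.58. Hsd17b2 then stood at 7.46 and 9.19 CPM with vehicle, under the 10 CPM needed for a call. As a mean over cells in place of summed UMIs, Hsd17b2 was at 9.66 CPM with vehicle before depletion and was not called either. Across class and library sums the patterns most like it were Ttr (r 0.88), Smbd1, Tafa4, Guca2a and Sprr2a3 (0.87 each).

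**Figure D2:**
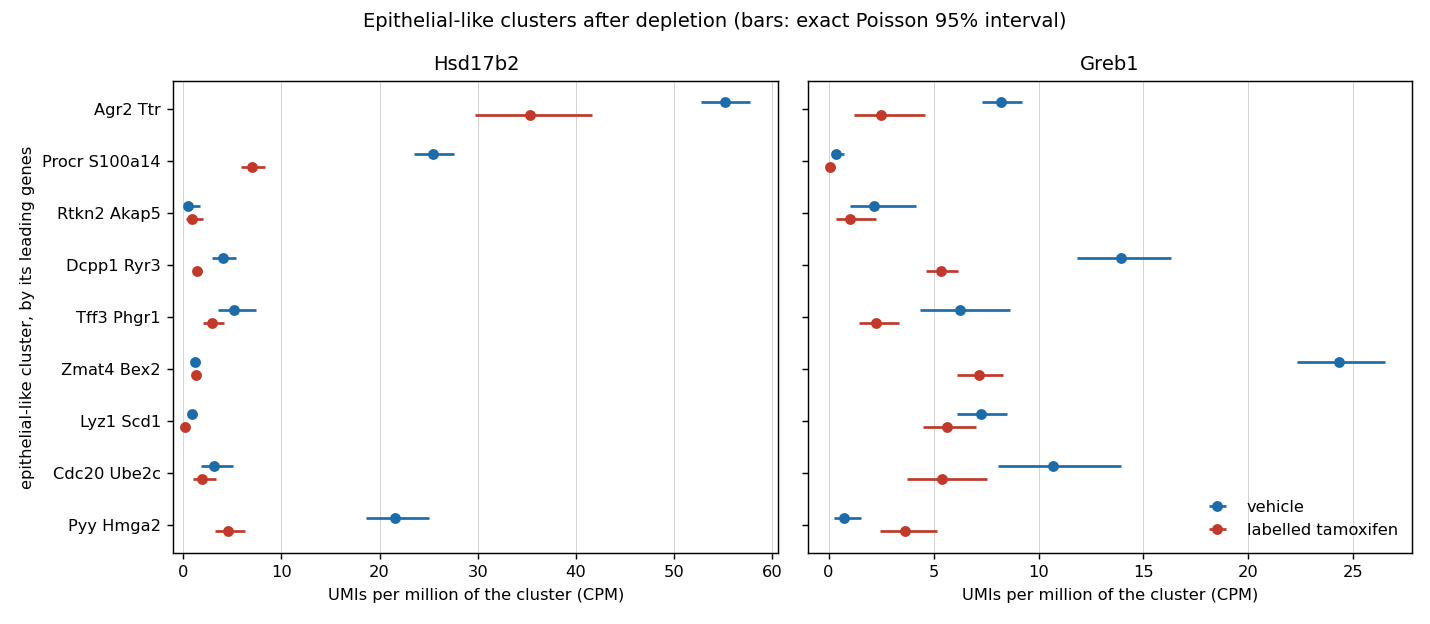
Level of Hsd17b2 and Greb1 after depletion in the 9 epithelial-like clusters (rows, named by leading genes) with at least 50 cells in both libraries. Values are CPM of the cluster with exact Poisson 95% intervals. The Aox3-led cluster, with 11 cells with vehicle and 369 labelled tamoxifen, is not shown. Hsd17b2 is highest in the Agr2-led cluster and Greb1 in the Zmat4-led one, and both lie lower in the library labelled tamoxifen there.

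In epithelial-like cells as a whole, the other enzymes differed by less than 2-fold between the arms. Hsd17b4 (ENSMUSG00000024507, on chromosome 18), the peroxisomal bifunctional enzyme of fatty acid oxidation, had epithelial-like levels of 68.3 and 63.3 CPM with vehicle, against 71.0 and 73.7 CPM in the libraries labelled tamoxifen. Its ratios were 0.05 and 0.22, and after depletion it ran from -0.33 in the Zmat4-led cluster to 0.74 in the Dcpp1-led one. Hsd17b7 (ENSMUSG00000026675, chr1:169949535-169969241, minus strand), which makes estradiol from estrone and also reduces sterols on the way to cholesterol, stood at 8.68 and 9.001 against 8.84 and 9.92 CPM. Its ratios were 0.02 and 0.13. By cluster it reached 0.92 in the Dcpp1-led one before depletion (plain ratio 0.22 to 2.02). In the Zmat4-led cluster after depletion it was at -0.65 (-1.31 to -0.37). Hsd17b12 (ENSMUSG00000027195, chr2:94032689-94157964, minus strand), the reductase of fatty acid elongation, stood at 99.4 and 116.7 against 95.05 and 109.5 CPM, with ratios of -0.06 and -0.09. Hsd17b4 and Hsd17b12 were not called. Hsd17b7 stayed under 10 CPM in both pairs and could not be called.

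Hsd17b11 (ENSMUSG00000029311, chr5:103989762-104021919, minus strand), a lipid droplet enzyme active on androgen metabolites, had levels of 63.4 and 64.4 CPM with vehicle, against 55.1 and 47.6 CPM in the libraries labelled tamoxifen. Its ratios of -0.20 and -0.43 missed the size rule. After depletion it was lower in 8 of 9 epithelial-like clusters, with the Lyz1-led one as the exception at 51.6 and 57.2 CPM. In the Rtkn2-led cluster, which carries the alveolar type I gene Ager, it went from 86.7 to 56.7 CPM.

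By cell class these 4 enzymes were broad. Hsd17b4 was highest in alveolar macrophage-like cells, with a mean of 116.0 CPM over the libraries, followed by monocyte or macrophage-like cells at 94.1 CPM and dendritic cell-like cells at 88.5 CPM. The ranges of the last 2 classes over libraries overlapped. It was lowest in neutrophil-like cells, at 15.5 CPM. Hsd17b7 ran from 16.0 CPM in fibroblast-like to 0.622 CPM in plasma cell-like cells. Hsd17b11 was highest in dendritic cell-like cells, at 120.6 and 78.5 CPM, a range that overlapped the 74.8 and 78.9 CPM of neutrophil-like cells. Hsd17b12 was highest in monocyte or macrophage-like cells at 112.1 CPM, with epithelial-like cells at 105.2 CPM and a range that overlapped it.

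**Figure D3:**
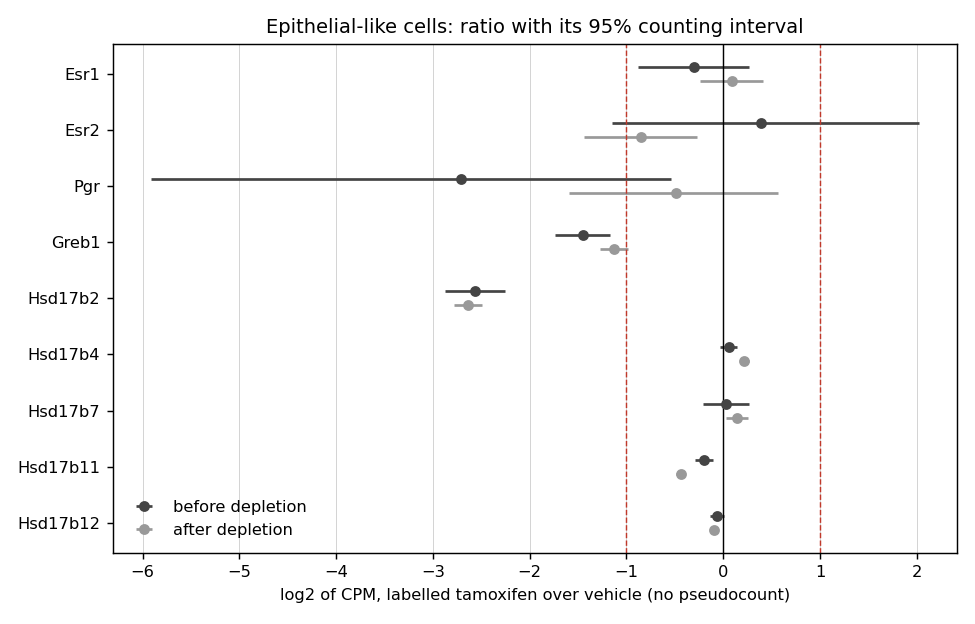
Log2 ratio of CPM in epithelial-like cells, labelled tamoxifen over vehicle, for the 9 measured genes before and after depletion, with 95% counting intervals and dashed lines at 2-fold. Hsd17b2 and Greb1 lie to the left in both pairs, while Hsd17b4, Hsd17b7, Hsd17b11 and Hsd17b12 lie within 2-fold. Pgr before depletion (interval -5.91 to -0.54) and Esr2 after it (-1.44 to -0.27) also lie left of 0, both under 10 CPM.

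Across both pairs, 4 of the 9 genes met the 10 CPM minimum each time, and 1 of them, Hsd17b2, fell 2-fold or more in both. Among all 9038 genes considered, 84 (0.929%) were lower and 35 (0.387%) were higher by the same rule. A count of 1 among 4 is too small to set against that share. Markers of other cell types also moved in the epithelial-like class: the summed level of the 10 monocyte or macrophage markers was 1112 and 1290 CPM with vehicle and 412 and 391 CPM in the libraries labelled tamoxifen. Most of it was Apoe, at 996 and 1235 against 308 and 329 CPM, while Ms4a7 was at 0 in both libraries after depletion. Its part in the results was not tested. In the comparison of portions, 0 of the 9 genes were called after against before depletion in either arm. By the same rule 0.13% of genes were higher and 0.529% lower with vehicle, and 0.0874% and 0.513% in the arm labelled tamoxifen. Hsd17b4, Hsd17b11 and Hsd17b12 reached 10 CPM in both arms, and Greb1 and Hsd17b2 with vehicle only. The others were under the minimum and could not be called. Among them with vehicle, Esr2 was at 0.219 CPM before and 0.537 CPM after, and Pgr at 0.375 and 0.147 CPM.

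Genes that estrogen is known to induce in breast or uterus were then read as a list of 36. Of 23 that reached the minimum in epithelial-like cells, 1 rose and none fell, beside 0.387% of all genes considered higher and 0.929% lower. The median log2 ratio was -0.05 before and -0.01 after depletion, beside -0.04 and 0.01 over all genes considered. The gene that rose was Susd3, an estrogen-induced gene of breast tumours, at 4.22 and 5.08 CPM with vehicle, against 13.0 and 12.8 CPM in the libraries labelled tamoxifen (log2 ratios 1.43 and 1.18). Its direction was thus opposite to that of Greb1. The secreted trefoil factor Tff1, the best known estrogen-induced gene of breast tumour cells, was at 24.5 and 90.5 CPM before depletion but at 59.5 and 64.2 CPM after it. Its vehicle portions differed from each other by more than the arms did after depletion. None of the 5 genes of highest level was called. The growth factor Areg was at 758 and 1096 against 809 and 891 CPM, the keratin Krt19 at 460 and 631 against 470 and 450 CPM, and the protease Ctsd at 402 and 393 against 488 and 467 CPM. The chaperone partner Fkbp4 was at 408 and 439 against 366 and 363 CPM, and the cyclin Ccnd1 at 251.2 and 244 against 257 and 262 CPM. Igfbp4 had ratios of -0.35 and 0.74, and C3 of -0.51 and -0.26. Stc2, under the minimum at 2.97 and 2.84 against 0.574 and 0.441 CPM, had ratios of -1.33 and -1.41. Xbp1, Myc and Rara had ratios between -0.23 and 0.15.

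The receptor's partners and relatives formed a list of 20, of which 16 reached the minimum. None rose and 1 fell, beside 0.387% of all genes considered higher and 0.929% lower. The gene that fell was Esrrg, an orphan receptor of metabolic genes. It was at 14.3 and 12.6 CPM with vehicle, against 3.82 and 4.88 CPM in the libraries labelled tamoxifen (ratios -1.67 and -1.21). Esrra, its relative, had ratios of 0.01 and -0.06. The pioneer factor Foxa1 was at -0.15 and 0.12, the corepressor Ncor1 at 0.04 and 0.07, the coactivator Ncoa1 at -0.13 and 0.02, and the chaperone Hsp90ab1 at -0.06 and -0.37. Nrip1, a corepressor that is itself induced by estrogen, was at -0.34 and -0.17.

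Among 39 measured genes of steroid metabolism, 14 reached the minimum, 1 rose and 1 fell, beside 0.387% of all genes higher and 0.929% lower. Cyp1b1, which hydroxylates estradiol, rose from 12.8 and 9.85 to 28.9 and 27.3 CPM (ratios 1.12 and 1.38). Akr1c12, an aldo-keto reductase of the steroid-converting family, fell from 12.2 and 16.99 to 4.85 and 6.45 CPM (ratios -1.18 and -1.27). Its close relative Akr1c13 was at -0.50 and -0.55, and reads can be shared between such near copies. Hsd17b10, the mitochondrial member of the dehydrogenase family, was at 0.71 and 0.44. Aromatase (Cyp19a1) and the activating enzymes Hsd17b1 and Hsd17b3 were among the 25 genes under the minimum.

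The fatty acid, sterol and lipid droplet genes beside which several of the enzymes work were mostly level. Of 8 elongation genes that reached the minimum, Elovl6, which lengthens palmitate, fell from 11.99 and 11.03 to 4.48 and 4.52 CPM (ratios -1.25 and -1.12). The other 7 were not called. None of 18 sterol synthesis genes, 12 peroxisomal oxidation genes or 10 lipid droplet genes was called. Over all genes considered, 0.387% were higher and 0.929% lower by the same rule. The median ratio of the sterol synthesis genes was -0.05 before and -0.00 after depletion.

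**Figure D4:**
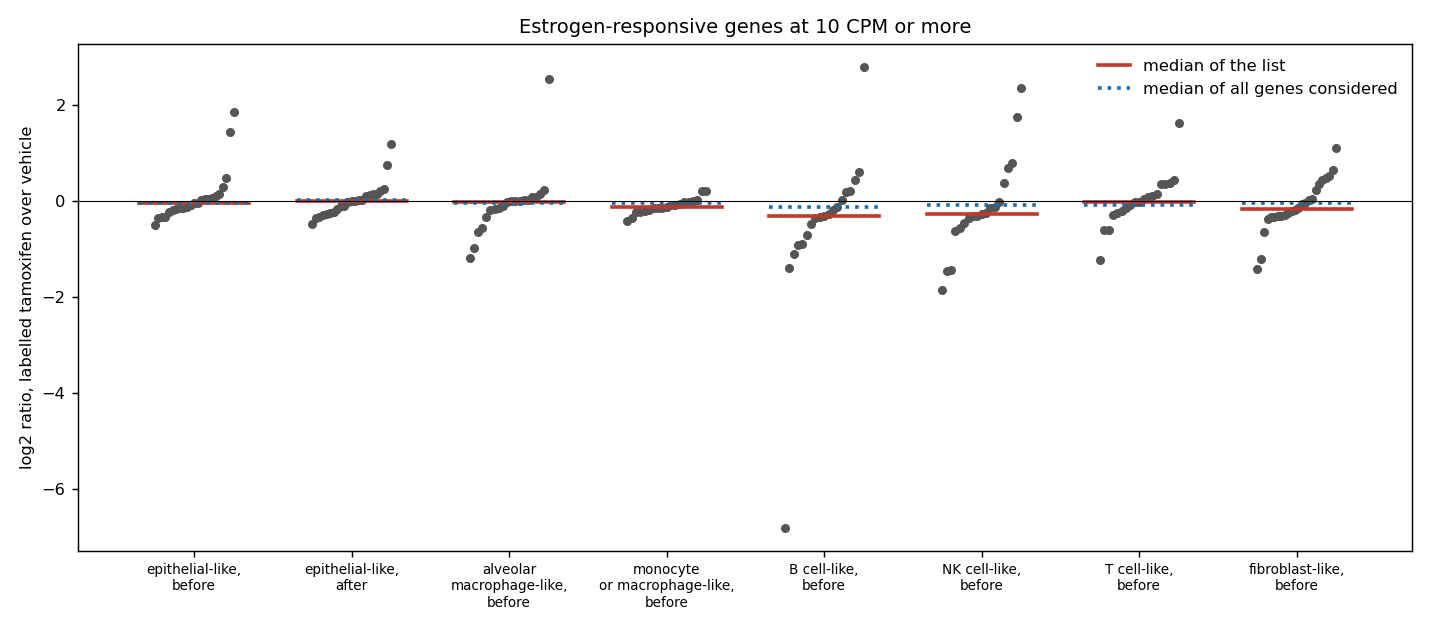
Log2 ratio with the 1 CPM pseudocount, libraries labelled tamoxifen over vehicle, of each estrogen-responsive gene (points) that reached 10 CPM, in epithelial-like cells before and after depletion and in 6 classes with Esr1 before it. The list's median (red) is -0.05 and -0.01 in epithelial-like cells, near the median of all genes considered (dotted), and lies below it in the B cell-like, NK cell-like, fibroblast-like and monocyte or macrophage-like columns. A gene listed at 0 in 1 library (Ltf in B cell-like cells) is plotted at its pseudocount value.

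Outside the epithelium, 11 class comparisons could be made, 9 before and 2 after depletion. Of 44 combinations of a listed gene and a class that reached the minimum, 1 was called: Esr1 in fibroblast-like cells before depletion. There the vehicle library gave 19.5 CPM (55 UMIs) and the library labelled tamoxifen 7.01 CPM (12 UMIs), with a ratio of -1.36. In that comparison 2.79% of 9633 genes were lower and 2.91% higher. After depletion the same class gave 7.56 and 9.36 CPM, from 20 and 12 UMIs, against a background of 3.31% lower and 1.95% higher. The vehicle library before depletion was thus the high one, and the other 3 overlapped. Epithelial marker genes summed to 436 CPM in that library and to 18073, 8089 and 7919 CPM in the other 3 (vehicle after, then labelled tamoxifen before and after depletion). The 8 alveolar macrophage markers summed to 335 CPM there, against 9.08, 153 and 8.58 CPM. Their part in the result was not tested.

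In the classes with most Esr1 the receptor itself was not called, though it was lower in T cell-like cells by more than counting error. The ratio was 0.18 (plain ratio 0.03 to 0.34) in alveolar macrophage-like cells, where 0.803% of 8218 genes were lower and 0.17% higher. It was -0.09 (-0.26 to 0.08) in monocyte or macrophage-like cells, against 0.406% of 8131 genes lower and 0.32% higher. It was -0.67 (-1.16 to -0.28) in T cell-like cells, against 0.748% of genes lower, and -0.44 (-1.19 to 0.23) in B cell-like cells, against 3.66%. In NK cell-like cells it was 0.38 (-0.67 to 1.43), where 4.09% of genes were higher and 6.67% lower. None of these was called. In the remaining comparisons none of the listed genes was called either, against 2.69% of genes higher and 1.25% lower in neutrophil-like cells and 1.74% and 1.49% in dendritic cell-like cells. The endothelial-like background was 1.09% and 3.1% before and 2.31% and 2.5% after depletion. In T cell-like and B cell-like cells 0.875% and 1.95% of genes were higher. Some enzymes differed outside the epithelium by more than counting error without a call. Before depletion Hsd17b12 went from 56.4 to 28.6 CPM in NK cell-like cells (plain ratio -1.93 to -0.11). Hsd17b11 went from 120.6 to 78.5 CPM in dendritic cell-like cells. In alveolar macrophage-like cells it went the other way, from 62.8 to 77.2 CPM. Greb1 in alveolar macrophage-like cells stood at 5.74 CPM (4.71 to 6.93) and 4.25 CPM (3.44 to 5.20), and the plain ratio of the class had an interval of -0.85 to -0.02. Most of it lay in the Chil3-led cluster, at 8.48 and 6.07 CPM (-0.93 to -0.04). Neither library reached 10 CPM. Monocyte or macrophage-like cells, with as much Esr1, held 0.304 and 0.0691 CPM of Greb1, from 7 and 1 UMIs.

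No excess of Greb1 in cells with an Esr1 UMI was detectable at this depth. Among alveolar macrophage-like cells thinned to 2000 UMIs, 0 of 92 with an Esr1 UMI held a Greb1 UMI with vehicle, which allows up to 3.26%, against 22 of 1615 without (1.36%). In the library labelled tamoxifen it was 1 of 131 (0.763%) against 15 of 1978 (0.758%). A Pgr UMI was seen in none of these cells.

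The estrogen-responsive list was also read in 6 other classes that hold Esr1. In alveolar macrophage-like cells 20 of its genes reached the minimum, 1 rose and 1 fell, with a median of -0.02 beside -0.04 over all genes. By the same rule 0.17% of all genes were higher and 0.803% lower. Igf1, the growth factor that estrogen induces in the uterus, rose from 1.86 to 15.7 CPM (ratio 2.55). The antiapoptotic gene Bcl2 fell from 17.3 to 7.01 CPM (ratio -1.19). Igf1 was singled out after its values were seen. In the Chil3-led cluster it was at 1.14 CPM (13 UMIs) with vehicle and 21.5 CPM (287 UMIs) in the library labelled tamoxifen. In the Lepr-led cluster it was at 5.07 and 6.45 CPM, and in the Top2a-led cluster at 1.73 and 7.46 CPM. In the Ms4a7-led cluster of monocyte or macrophage-like cells it was at 4.33 and 13.0 CPM. Fibroblast-like cells held 996 CPM with vehicle and 791 CPM in the library labelled tamoxifen. In alveolar macrophage-like cells the 7 fibroblast markers summed to 5.47 and 4.84 CPM.

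In monocyte or macrophage-like cells 19 genes of the list reached the minimum and none was called, with a median of -0.13 beside -0.05. Of all genes there, 0.32% were higher and 0.406% lower. In B cell-like cells 1 of 19 rose and 3 fell, beside 1.95% of all genes higher and 3.66% lower, with a median of -0.31 beside -0.12. Igfbp5 rose from 2.75 to 24.9 CPM. Ccnd1 and C3 fell, and the neutrophil granule gene Ltf went from 111.3 CPM to 0, which allows up to 2.58 CPM. In NK cell-like cells, where 4.09% of genes were higher and 6.67% lower, Myb and Igfbp4 rose and Areg, C3 and Tgm2 fell, of 19 genes, with a median of -0.27 beside -0.09. In T cell-like cells 1 of 19 rose (Pkib) and 1 fell (Myb), beside 0.875% of genes higher and 0.748% lower, with a median of -0.02 beside -0.09. Myb thus moved in opposite directions in the NK cell-like and T cell-like classes. In fibroblast-like cells Areg rose and Ccnd1 and Mybl1 fell before depletion, of 24 genes, with a median of -0.17 beside -0.05, where 2.91% of genes were higher and 2.79% lower. After depletion Stc2 rose and Areg, Krt19 and Slc9a3r1 fell, of 23, with a median of -0.09 beside 0.00, where 1.95% of genes were higher and 3.31% lower. In classes with less Esr1 the list's median before depletion was -0.30 beside -0.07 in endothelial-like cells, -0.15 beside 0.07 in neutrophil-like cells and -0.08 beside -0.07 in dendritic cell-like cells.

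Sex-linked transcripts were read in every library. Over the 27 class and library sums Xist, which females transcribe from the inactive X, ran from 0 to 0.750 CPM. The summed level of 4 Y-linked genes ran from 124 to 438 CPM. In epithelial-like cells it was 287 and 255 CPM with vehicle, against 328 and 319 CPM in the libraries labelled tamoxifen. In T cell-like cells it was 380 and 324 CPM. Every library held Y-linked RNA and almost no Xist.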

How the data were processed

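The deposited matrices hold UMI counts by gene and barcode, which the authors did not normalize. They were written by Cell Ranger 7.0.1 per the file headers, while the submitters' processing notes name version 7.2.0 and the build mm10. The use of intronic reads is not given in the sources used here. Of 32289 feature identifiers, 32158 matched GENCODE M21 (GRCm38), which supplied coordinates.

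Barcodes with fewer than 200 genes or over 20% mitochondrial UMIs were dropped. Doublets were removed at a fixed Scrublet score of 0.25 (116 to 225 cells per library), because the automatic threshold called 1, 1 and 0 cells in 3 libraries. Cells were clustered with scanpy 1.11.5 (2000 variable genes, 40 components, 15 neighbours, Leiden resolution 1) into 34 clusters. A cluster needed 3 markers of a class, each seen in 10% of its cells. Clusters high for both epithelial and immune markers (scores over 0.5) stayed unnamed, a rule chosen after the clusters were seen.

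UMIs were summed per class and library (at least 50 cells) and given as CPM. Ratios are log2 with a pseudocount of 1 CPM. A gene was called if at least 1 library of every pair compared held 10 CPM of it and the ratio passed 2-fold in the same direction throughout. On simulated counts over 8823 genes in epithelial-like cells, this rule called 100% of genes changed 3-fold, 0% of those changed 1.5-fold and 0 unchanged genes. That check did not cover the smaller classes. It gives no rate of false calls between mice, since their spread is unknown. With 1 library per group no p-value was computed. Intervals are exact Poisson for CPM, conditional binomial for plain ratios and Clopper-Pearson for shares, at 95%, and a count of 0 allows 3 counts. The genes named are the listed genes, and of each list the genes called in epithelial-like cells and others of high level. The listed genes, gene lists and alternatives were chosen with earlier results of these data known. One further allele of the genotype and 1 gene of the steroid metabolism list are not reported here.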

Additional observations from a re-analysis of the deposited data

Results flagged for a closer look

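A pair of features that are not mouse genes carried signal that no comparison above used. Cre, which in these mice is expressed as CreERT2 and so is joined to an estrogen receptor domain, was counted in epithelial-like cells of every library above what a count of 0 allows. It stood at 2.50 CPM and 3.21 CPM in the vehicle libraries before and after depletion, and at 3.36 CPM and 3.18 CPM in the libraries labelled tamoxifen. In alveolar macrophage-like cells it gave 1 UMI in each library before depletion (0.0531 and 0.0452 CPM). Whether the feature's sequence covers the receptor domain is not given in the sources used here. After depletion the flpO feature was counted at 0.301 CPM (0.216 to 0.409) with vehicle and 0.0373 CPM (0.0121 to 0.0871) in the library labelled tamoxifen. Before depletion it gave 1 UMI with vehicle (0.0312 CPM, 0.000791 to 0.174). It gave 0 UMIs in the library labelled tamoxifen, which allows up to 0.0861 CPM. The intervals of the vehicle portions thus did not overlap each other either.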

How the results depend on the processing

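No paired analysis was possible because each group holds 1 library and the labels carry no replicate numbers. Of 437 values recomputed under alternatives, 356 stayed within their counting interval or within 1.5 times the main count, 81 moved and 0 called values changed sign. TMM and median of ratios shifted the median gene by at most 0.06. Genes lower in both pairs (84) became 160 with no CPM minimum, 54 as a mean over cells and 44 without the Agr2-led cluster (a setting added once the data were seen). Listed genes called (1) became 0 under the last 2, where Hsd17b2 was under 10 CPM, and also 0 with each cluster given the same share in both libraries (likewise added), where its ratios were -0.91 and -0.95 and that of Greb1 after depletion -1.16. The Hsd17b2 ratio before depletion was -1.91 as a mean over cells and -1.23 without the Agr2-led cluster. After depletion it was -1.58 without that cluster and -2.60 with a pseudocount of 0.1 CPM. Without doublet removal, where clusters were drawn anew and some immune clusters took other names, Esr1 in monocyte or macrophage-like cells was at 21.9 CPM (vehicle) and 26.8 CPM (labelled tamoxifen), a ratio of 0.28 against -0.09, which was not called either way. That setting put epithelial-like Esr1 at 1.97 CPM in the library labelled tamoxifen before depletion. As a mean over cells with vehicle before depletion, Esr1 was at 27.0 CPM in alveolar macrophage-like, 29.0 CPM in monocyte or macrophage-like and 2.80 CPM in epithelial-like cells. Shares of cells with a UMI depend on depth. Thinned to 5000 UMIs, Esr1 was seen in 11.5% and 13.2% of alveolar macrophage-like cells, and unthinned in 18.8% and 21.6%. For epithelial-like cells (vehicle before and after depletion, then labelled tamoxifen), Hsd17b2 gave 4.24%, 5.23% and, after depletion, 0.997% at 5000 UMIs, and 13.1%, 14.0%, 3.95% and 3.48% unthinned. Greb1 gave 4.96%, 4.27%, 2.76% and 1.61% at 5000 UMIs, and 16.5%, 12.6%, 7.44% and 5.28% unthinned. Vehicle shares stayed above the others for both genes at every depth. With 1 library per group, spread between mice is unknown.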
